A study of Mus musculus with 20 samples.

Results

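LPS was set against lipoproteins in mouse bone marrow macrophages, in the 8 of the 20 small RNA libraries of the study that hold macrophages with 1 of these stimuli. The 8 were taken by their titles. LPS has 2 libraries, 1 from miR-155 knockout and 1 from wild-type macrophages, and the lipoproteins oxLDL, eLDL and LDL have 6, 1 from each genotype for each. The other 12 libraries hold unstimulated macrophages, which were not used here, and dendritic cells, of which the 8 with LPS or a lipoprotein serve as a comparison near the end. Since every macrophage received a stimulus in these 8 libraries, the comparison asks what differs between a bacterial stimulus and a lipid load, not what follows stimulation as such.

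The knockout mice were of the strain B6.Cg-Mir155tm1.1Rsky/J and the wild-type mice of the strain C57BL/6, all killed between 8 and 12 weeks of age. Flushed marrow was grown in medium with 10% fetal calf serum and, for macrophages, the supernatant of a hybridoma that secretes M-CSF, so each group shares this serum and growth factor. The labels give neither the dose nor the duration of LPS or of any lipoprotein for macrophages, and do not spell out oxLDL and eLDL. LDL is the low-density lipoprotein that carries cholesterol in blood. Each condition has 1 library, and no label says whether libraries came from separate mice or cultures, so the p-values below measure the spread among these libraries, which may be partly technical.

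A miRNA is cut from a hairpin precursor, first by Drosha and then by Dicer, which leaves a short duplex with a 5p and a 3p arm. The arm that is loaded into an Argonaute protein finds its targets mainly through the seed, the bases just behind its 5′ end. LPS, a glycolipid of the outer membrane of bacteria, is sensed through Toll-like receptor 4, and miR-155, miR-146a, miR-147 and miR-21 are known to follow this signal in macrophages and to feed back on it. Lipoproteins reach macrophages through scavenger receptors and the LDL receptor, and miR-33, which lies in the gene of the sterol regulator Srebf2 and represses the cholesterol exporter Abca1, is the best known miRNA of that side.

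The mature sequences below, from RefSeq (GRCm38.p6), belong to miRNAs on which the differences in level turn. They are written 5′ to 3′ with the seed, bases 2 to 8, in capitals. The first 8 were higher with LPS than with lipoproteins.
miR-101a-3p: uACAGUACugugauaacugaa
miR-183-5p: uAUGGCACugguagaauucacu
miR-182-5p: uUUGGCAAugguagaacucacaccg
miR-7a-5p: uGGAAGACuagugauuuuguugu
miR-22-3p: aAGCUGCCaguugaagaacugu
miR-21a-3p: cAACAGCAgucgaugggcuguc
miR-210-3p: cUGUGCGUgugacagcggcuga
miR-92b-3p: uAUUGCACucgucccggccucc
The next 8 were lower with LPS, and among them the 5p arms of miR-30a and miR-30e share the seed GUAAACA and the 3p arms of miR-181a-1 and miR-181c the seed CCAUCGA.
miR-33-5p: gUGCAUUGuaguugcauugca
miR-223-3p: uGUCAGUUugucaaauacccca
miR-16-1-3p: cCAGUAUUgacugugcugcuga
miR-135a-1-3p: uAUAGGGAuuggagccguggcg
miR-30a-5p: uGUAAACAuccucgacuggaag
miR-30e-5p: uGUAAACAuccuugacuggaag
miR-181a-1-3p: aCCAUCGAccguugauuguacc
miR-181c-3p: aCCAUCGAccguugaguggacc

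A further 6 sequences carry the difference in tag length described below, and here the capitals mark the bases after position 20, which many tags lacked in the LPS libraries.
miR-298-5p: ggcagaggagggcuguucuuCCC
miR-423-3p: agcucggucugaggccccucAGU
miR-296-3p: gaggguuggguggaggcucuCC
miR-149-5p: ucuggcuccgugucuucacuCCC
miR-425-3p: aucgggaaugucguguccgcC
miR-221-3p: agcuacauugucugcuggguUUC

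The 8 libraries held 15 to 22.8 M reads (M stands for 1e6), of which 42.4 to 53.2% matched an arm of a miRNA hairpin (6.44 to 11.8 M reads). Levels are given as counts per 1e6 miRNA reads (CPM), and a count of 3, the upper limit that a count of 0 allows, was 0.255 to 0.466 CPM per library. In all, 669 to 727 miRNAs were detected per library, and tests took the 337 that reached 5 CPM in 2 or more libraries, which hold at least 99.96% of the miRNA reads of every library. Across the tested miRNAs the first principal component, with 68.5% of the variance, separated the genotypes. The second, with 14.5%, placed the LPS libraries at 7.18 in the knockout and 8.59 in the wild type, apart from the lipoprotein libraries at −4.47 to −1.46.

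The deleted miRNA was read first. miR-155-5p, which represses Socs1 and Inpp5d and so sharpens inflammatory signals, had 33 reads in the knockout library with LPS and 45, 35 and 33 reads in those with oxLDL, eLDL and LDL. No read of miR-155-3p (0) was counted in any of these 4. In wild-type macrophages miR-155-5p stood at 39828 CPM with LPS, against 33143, 27235 and 26724 CPM with oxLDL, eLDL and LDL. The ratio of LPS was smallest over oxLDL, 1.2 (95% exact Poisson interval 1.2 to 1.21). It was 1.46 (1.45 to 1.47) over eLDL and 1.49 (1.48 to 1.5) over LDL, and the intervals cover counting error only. miR-155-3p had 221 CPM with LPS, against 160, 146 and 185 CPM with oxLDL, eLDL and LDL, so its closest lipoprotein library was that with LDL. With 1 wild-type LPS library these ratios have no replicate check. The hairpin lies at chr16:84714140-84714204 (plus strand, GRCm38) in an exon of Mir155hg.

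Over both genotypes, 61 of the 337 tested miRNAs differed between LPS and the 3 lipoproteins (18.1%; edgeR's quasi-likelihood test with genotype as a block, Benjamini-Hochberg adjusted p under 0.05). The error of this test comes from the spread among the 3 lipoproteins and from differences that are not parallel in the genotypes, not from replicates. With LPS 36 were higher (10.7%) and 25 were lower (7.42%), and 116 had an unadjusted p under 0.05. Most differences were modest: 18 of the 61 exceeded 2-fold, and the median over all tested miRNAs was 0.03 on the log2 scale. Each of the 61 had the same sign against oxLDL, eLDL and LDL and in both genotypes. The 61 were picked by the difference over these same libraries, so this agreement is no separate support for them. In 57 of them the LPS library lay beyond all 3 lipoprotein libraries of its genotype on the called side in both genotypes. That pattern is frequent in these libraries, since it held for 137 of all 337 tested miRNAs (40.7%), 52 with LPS above and 85 with LPS below. The split into higher and lower depends on the scaling. It was 27 higher and 45 lower when scaled to total miRNA reads, which moved the median of all miRNAs by −0.13, and 34 and 35 with DESeq2's size factors, 37 and 45 with the DESeq2 test and 35 and 36 without a filter on low counts. In total 28 of the 61 kept their call when any 1 of the 8 libraries was left out, 18 higher and 10 lower. In RNA from whole cultures, fewer cells of a type and less of a miRNA per cell cannot be told apart.

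Among miRNAs known to follow inflammatory signals, miR-147-3p, which damps inflammatory cytokines in mouse macrophages, had the smallest adjusted p together with miR-101a-3p. It stood at 1158 CPM in knockout and 1898 CPM in wild-type macrophages with LPS, against 563, 590 and 561 CPM in the knockout and 850, 940 and 938 CPM in the wild type with oxLDL, eLDL and LDL. The LPS value lay well above the 3 lipoprotein values of its genotype both times, and those 3 stayed close together. The log2 difference was 1.17 ± 0.08 (standard error, 2 against 6 libraries; adjusted p = 7.3e-06), or 2.26-fold. The other arm, miR-147-5p, differed by 0.32 (adjusted p = 0.0575). The hairpin lies at chr2:122640803-122640881, in an exon of AA467197.

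miR-21a, a repressor of Pdcd4 that lies in an exon of Vmp1, was higher with LPS on both arms. miR-21a-3p had 987 CPM in the knockout and 2821 CPM in the wild type with LPS, against 765, 701 and 671 CPM in the knockout and 918, 1185 and 993 CPM in the wild type with oxLDL, eLDL and LDL. Its log2 difference was 1.14 ± 0.18 (adjusted p = 0.00169). The wild-type LPS library was far above its lipoprotein libraries and the knockout one less so, and without the wild-type one the difference was 0.60 and still called. miR-21a-5p, at 13% of all miRNA reads the second most abundant miRNA, had 144152 CPM in the knockout and 180547 CPM in the wild type with LPS, against 110615 to 131590 CPM in the knockout and 91601 to 137194 CPM in the wild type with lipoproteins. Its difference of 0.58 ± 0.16 passed the test (adjusted p = 0.0295), but not after scaling to total miRNA reads, nor when any 1 of 3 libraries was left out, among them that of LPS in the wild type (0.34 to 0.81 over the 8 fits that each leave out 1 library).

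miR-221-3p, which represses the cell cycle inhibitor Cdkn1b, had 2197 CPM in the knockout and 3848 CPM in the wild type with LPS, against 1755, 1637 and 1817 CPM in the knockout and 1629, 1767 and 1589 CPM in the wild type with oxLDL, eLDL and LDL. The groups did not overlap within a genotype, a pattern that held for 40.7% of all tested miRNAs. The log2 difference was 0.94 ± 0.16 (adjusted p = 0.00231), and 0.46 without the wild-type LPS library. miR-222-3p, with which it shares the seed GCUACAU, differed by 0.24 and was not called. Both arms of miR-210, known as a target of the hypoxia factor Hif1a, were called higher. miR-210-3p had 191 CPM in the knockout and 2988 CPM in the wild type with LPS, against 157, 164 and 148 CPM in the knockout and 768, 963 and 887 CPM in the wild type (1.28 ± 0.24, adjusted p = 0.00436). Its level in the knockout was low with every stimulus, and with the LPS library of the wild type left out the difference was 0.42 and its call was lost, while it was 1.93 without that of the knockout. miR-210-5p moved in the same way at lower counts, with 9.81 CPM in the knockout and 147 CPM in the wild type with LPS, against at most 8.4 CPM and at most 22.2 CPM with lipoproteins (2.35 ± 0.48, adjusted p = 0.00573; 0.96 and no call with that library left out).

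Other miRNAs of this group were not called by edgeR in the fit over both genotypes. miR-146b-5p, a repressor of the adaptors Traf6 and Irak1 and the most abundant miRNA with 25.3% of the reads, had 248251 CPM in the knockout and 231710 CPM in the wild type with LPS, against 252234 to 262204 CPM and 252056 to 266520 CPM with lipoproteins. Its fitted difference was 0.03 ± 0.07, though both LPS values in CPM lay below the lipoprotein values of their genotype. The fit scales libraries by TMM factors, which the CPM do not use. These were 0.959 in the knockout and 0.908 in the wild type with LPS, against 0.982 to 1.062 with lipoproteins. miR-146a-5p differed by 0.40 (adjusted p = 0.0894), and its genotypes are given separately below. Without the knockout LPS library it had 0.76 and was called (adjusted p = 7.3e-04), and without the wild-type one −0.02. miR-155-5p had 0.41 (adjusted p = 0.0984) and miR-155-3p 0.57 (adjusted p = 0.11), in a fit to which the knockout brings almost no reads. Both were called with limma voom (adjusted p = 0.0146 and 0.049), and miR-155-5p also without the knockout LPS library (0.60, adjusted p = 0.00908). With no filter on low counts miR-146a-5p and miR-155-5p were called as well (adjusted p = 0.0243 and 0.013). The 4 arms of miR-132 and miR-212, a pair induced by the transcription factor CREB, had differences with a median of 0.11, and 0 of them were called in either direction by edgeR. Of 30 tested members of the list of inflammation-induced miRNAs, 6 were higher, 1 was lower and 23 were not called, with a median of 0.24, against 0.03 over all tested miRNAs. The share called is near the 18.1% of all tested miRNAs. The member that was lower is miR-9-5p, a repressor of Nfkb1, with 13100 CPM in the knockout and 6908 CPM in the wild type with LPS, against 17259 to 18419 CPM in the knockout and 10581 to 12982 CPM in the wild type with lipoproteins. It differed by −0.45 ± 0.11 (adjusted p = 0.0146), a call lost when the LPS library of the wild type or both LDL libraries are left out. Of 16 tested miRNAs listed as brakes on Toll-like receptor signalling, 3 were higher and 3 lower, beside 10.7% and 7.42% of all tested miRNAs, with a median of 0.07 that became −0.06 when scaled to total reads.

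The miR-183 cluster, best known from sensory organs, had 2 of its 3 tested arms higher with LPS and 0 lower, beside 10.7% higher over all tested miRNAs. miR-183-5p had 4124 CPM in knockout and 2963 CPM in wild-type macrophages with LPS, against 1848, 1925 and 1762 CPM in the knockout and 1862, 2027 and 1759 CPM in the wild type with oxLDL, eLDL and LDL (1.05 ± 0.10, adjusted p = 7.4e-05). The 6 lipoprotein libraries were almost level across genotypes, and both LPS libraries stood above them. miR-182-5p had 6214 CPM in the knockout and 5032 CPM in the wild type with LPS, against 2994, 3226 and 3035 CPM in the knockout and 3348, 2982 and 3259 CPM in the wild type. This is a difference of 0.97 ± 0.10 (adjusted p = 8.4e-05). LPS libraries beyond the lipoprotein libraries in both genotypes were a condition for naming among the largest differences. That pattern held for 40.7% of all tested miRNAs. The third member, miR-96-5p, had 21.8 CPM and 16.2 CPM with LPS, against 7.06 to 18.1 CPM in the knockout and 9.38 to 12.4 CPM in the wild type. Its difference of 0.86 ± 0.32 was not called (adjusted p = 0.0871). The hairpins of miR-182 at chr6:30165918-30165992 and miR-183 at chr6:30169668-30169737 lie on the minus strand with no annotated host gene.

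Several abundant miRNAs outside the inflammatory lists were called higher with small spread. miR-101a-3p, which represses the histone methyltransferase Ezh2, had 1261 CPM in the knockout and 1460 CPM in the wild type with LPS, against 578, 600 and 605 CPM in the knockout and 722, 754 and 779 CPM in the wild type with oxLDL, eLDL and LDL. The log2 difference was 1.15 ± 0.08 (adjusted p = 7.3e-06). Its near relative miR-101b-3p differed by 0.27 ± 0.08 (adjusted p = 0.0398), with 3246 CPM and 1736 CPM with LPS, against 2689 to 2821 CPM and 1653 to 1732 CPM. The wild-type LPS library of miR-101b-3p was thus barely above its lipoprotein libraries. miR-22-3p, cut from an exon of Mir22hg, had 27377 CPM in the knockout and 25677 CPM in the wild type with LPS, against 16310 to 17006 CPM in the knockout and 16263 to 18164 CPM in the wild type (0.78 ± 0.07, adjusted p = 7.4e-05). miR-7a-5p, of which a copy lies in an intron of Hnrnpk, had 2052 CPM in the knockout and 1681 CPM in the wild type with LPS, against 860 to 1093 CPM in the knockout and 713 to 1010 CPM in the wild type (1.10 ± 0.15, adjusted p = 6.0e-04). In these miRNAs, apart from miR-101b-3p, both LPS libraries stood well above the lipoprotein range of their genotype, and the difference between genotypes was not called.

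miR-27b-3p, a repressor of Pparg, had 15671 CPM in the knockout and 16040 CPM in the wild type with LPS, against 10340 to 11324 CPM and 9870 to 12082 CPM with lipoproteins (0.67 ± 0.08, adjusted p = 2.7e-04). The miRNAs miR-147-3p, miR-101a-3p, miR-183-5p, miR-182-5p, miR-7a-5p, miR-22-3p, miR-27b-3p, miR-221-3p, miR-92b-3p and miR-1948-3p kept their call under each alternative that tested them. Of these, miR-92b-3p and miR-1948-3p were scarce. miR-92b-3p had 34 CPM in the knockout and 20.9 CPM in the wild type with LPS, against 15.4, 9.31 and 6.51 CPM in the knockout and 7.98, 7.77 and 3.4 CPM in the wild type (1.86 ± 0.34, adjusted p = 0.00364). The other 3 miRNAs with its seed AUUGCAC, among them the abundant miR-92a-3p, had −0.15 to 0.02. miR-1948-3p had 39.9 CPM and 26.3 CPM with LPS, against 11 to 15.8 CPM in the knockout and 6.62 to 10.6 CPM in the wild type (1.69 ± 0.22, adjusted p = 6.0e-04). miR-129-5p, also scarce, had 14.8 CPM in the knockout and 24 CPM in the wild type with LPS, against 5.49 to 7.36 CPM and 2.64 to 3.52 CPM (2.28 ± 0.36, adjusted p = 0.00192; 1.32 and no call with the LPS library of the wild type left out). miR-574-5p, lying in an intron of Fam114a1, had 0.97 ± 0.20 (adjusted p = 0.00584) and likewise lost its call (0.53).

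**Figure D1:**
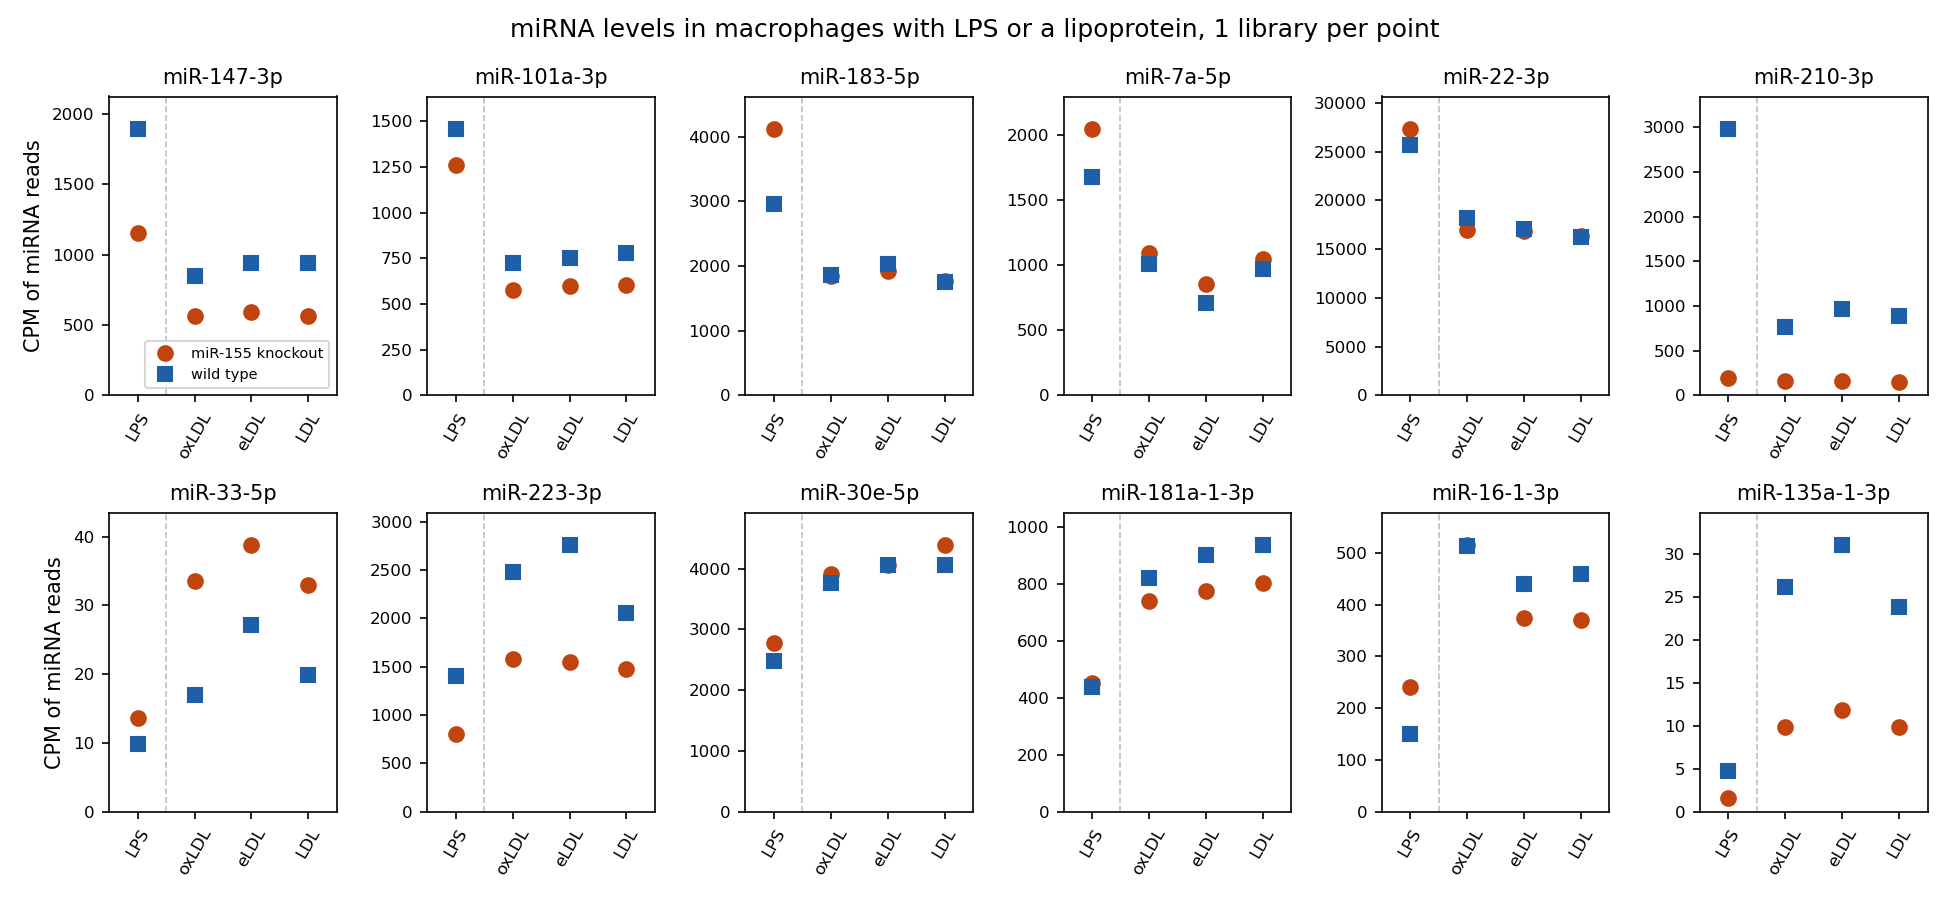
Levels of 12 miRNAs in the 8 macrophage libraries, as CPM of miRNA reads on linear axes from 0, with 1 point per library, knockout as circles and wild type as squares. The LPS points lie above the lipoprotein points of their genotype in the upper row and below them in the lower row, and miR-210-3p shows how small its knockout values are (191 CPM with LPS) beside the wild type (2988 CPM).

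Members of the lipid handling list were called about as often as all tested miRNAs. Of its 27 tested members 2 were higher, miR-27b-3p and miR-10b-5p, and 4 were lower, miR-33-5p, miR-378a-3p and both arms of miR-223, against 10.7% higher and 7.42% lower over all 337. The other 21 were not called, and the median was −0.05. miR-33-5p was scarce, with 13.6 CPM in the knockout and 9.78 CPM in the wild type with LPS, against 33.5, 38.8 and 32.9 CPM in the knockout and 16.9, 27.2 and 19.9 CPM in the wild type with oxLDL, eLDL and LDL. It differed by −1.10 ± 0.22 (adjusted p = 0.00564). Both LPS libraries lay below every lipoprotein library, and eLDL was highest in both genotypes. The hairpin lies at chr15:82198122-82198190 in an intron of Srebf2. miR-378a-3p, whose main hairpin lies in an intron of the metabolic coactivator gene Ppargc1b, had 5956 CPM in the knockout and 8679 CPM in the wild type with LPS, against 8461, 8582 and 9228 CPM in the knockout and 12949, 15183 and 17164 CPM in the wild type. Its difference was −0.54 ± 0.12 (adjusted p = 0.00864). With the LPS library of the wild type left out it had −0.43 and no call, and miR-378a-5p had −0.54 (adjusted p = 0.165).

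miR-223, a marker of the myeloid lineage that restrains granulocyte production, was lower on both arms. miR-223-3p had 803 CPM in the knockout and 1400 CPM in the wild type with LPS, against 1580, 1545 and 1475 CPM in the knockout and 2480, 2763 and 2055 CPM in the wild type with oxLDL, eLDL and LDL. The LPS values were well under the lipoprotein values within each genotype, with a difference of −0.73 ± 0.10 (adjusted p = 0.00103). miR-223-5p had −0.53 ± 0.16 (adjusted p = 0.0423) and lost its call in 5 of the 8 fits without 1 library and in 9 other alternatives. With tags of 20 to 24 nt alone its difference was −0.11. Of 21 tested miRNAs of the myeloid differentiation list, 2 were higher, miR-503-5p and miR-29a-3p, and 3 were lower, both arms of miR-223 and miR-181a-1-3p. The other 16 were not called (median −0.18), and the 18.1% called over all tested miRNAs is close to this share.

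Of the 11 tested arms of the miR-30 family, 5 were lower with LPS, 0 were higher and 6 were not called (median −0.18), against 7.42% lower over all tested miRNAs. Scaled to total miRNA reads 7 were lower. Both arms of miR-30a and of miR-30e were among the 5. miR-30e-5p, from an intron of Nfyc, had 2774 CPM in the knockout and 2479 CPM in the wild type with LPS, against 3908, 4062 and 4394 CPM in the knockout and 3760, 4060 and 4066 CPM in the wild type with oxLDL, eLDL and LDL (−0.49 ± 0.09, adjusted p = 0.00355). miR-30a-5p had 913 CPM and 360 CPM with LPS, against 1265 to 1368 CPM in the knockout and 605 to 656 CPM in the wild type (−0.53 ± 0.09, adjusted p = 0.00334). No LPS library reached the lipoprotein range of its genotype in these miRNAs. The 3p arms, which share the seed UUUCAGU with each other, had −0.58 ± 0.12 in miR-30a and −0.46 ± 0.09 in miR-30e (adjusted p = 0.00512 and 0.00498). The call of miR-30a-3p is lost when the LPS library of the wild type is left out. miR-30c-5p, with the same seed as the 5p arms, had −0.15 and was not called. Neither was the most abundant member, miR-30d-5p, with 11742 CPM and 10964 CPM with LPS, against 13628 to 13980 CPM in the knockout and 12809 to 13530 CPM in the wild type (−0.11 ± 0.07). miR-30b-3p was called at −0.40 ± 0.12 but lost its call in 7 of the 8 fits without 1 library.

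Of 7 tested arms of the miR-181 family, which is known from lymphocyte development, 3 were lower with LPS, against 7.42% of all tested miRNAs. miR-181a-1-3p had 451 CPM in the knockout and 437 CPM in the wild type with LPS, against 740, 776 and 804 CPM in the knockout and 822, 902 and 939 CPM in the wild type with oxLDL, eLDL and LDL (−0.77 ± 0.10, adjusted p = 6.7e-04). miR-181c-3p, with the same seed, had 154 CPM and 55.8 CPM with LPS, against 228 to 285 CPM in the knockout and 103 to 132 CPM in the wild type (−0.74 ± 0.15, adjusted p = 0.00506; call lost when the LPS library of the wild type is left out). miR-181d-5p, cut from a hairpin next to that of miR-181c in an intron of Nanos3, had 685 CPM and 235 CPM with LPS, against 1018 to 1257 CPM in the knockout and 368 to 458 CPM in the wild type (−0.63 ± 0.11, adjusted p = 0.00334). The abundant miR-181a-5p, from the other arm of miR-181a-1 and from miR-181a-2, had 0.03 and was not called, so within this hairpin the calls concern the scarcer arm.

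miR-16-1-3p, the scarcer arm of a hairpin in an exon of Dleu2, had 240 CPM in the knockout and 150 CPM in the wild type with LPS, against 516, 375 and 370 CPM in the knockout and 513, 441 and 459 CPM in the wild type with oxLDL, eLDL and LDL (−1.07 ± 0.20, adjusted p = 0.00402). It kept its call in every alternative, with −0.68 when the LPS library of the wild type is left out and −1.51 when that of the knockout is. miR-135a-1-3p had 1.53 CPM in the knockout and 4.77 CPM in the wild type with LPS, against 9.81 to 11.8 CPM in the knockout and 23.8 to 31.1 CPM in the wild type (−2.47 ± 0.27, adjusted p = 1.7e-04). miR-6539-5p, from an intron of Dock5, had 4.2 CPM and 2.38 CPM, against 15.3 to 19.4 CPM and 16.2 to 38.5 CPM (−2.53 ± 0.43, adjusted p = 0.00254). These 2 had the largest differences downwards, and both are scarce. miR-345-3p (−1.10 ± 0.28; −0.68 without the LPS library of the wild type) and miR-700-3p (−1.02 ± 0.25) lost their calls without that library or without both eLDL libraries, and miR-700-3p also without the knockout LPS library. miR-365-2-5p (−1.13 ± 0.34), miR-93-3p (−0.79 ± 0.23) and miR-342-5p (−0.71 ± 0.22) lost their calls in 5 or more of the 8 fits without 1 library, and miR-365-2-5p ran from −2.04 without the knockout LPS library to −0.52 without the wild-type one.

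In each of the other lists, apart from the cell type markers given in the next paragraph, 0 to 2 members were called, beside 18.1% of all tested miRNAs. edgeR called 0 of 13 tested arms of the let-7 family (1 at unadjusted p under 0.05, 0 with DESeq2), 0 of 5 of the cluster that holds miR-99b (1 and 0), 0 of 6 linked to p53 (1 and 1) and 0 of 4 linked to CREB (0 and 0). In the miR-17/92 and paralogous clusters it was 1 of 16 (miR-93-3p; 6 with DESeq2), and in the miR-15/16 family 2 of 10 (miR-503-5p higher, miR-16-1-3p lower). The miR-23/27/24 clusters had 2 of 8 (miR-27b-3p higher, miR-23a-3p lower, the second lost without the wild-type LPS library or both LDL libraries) and the miR-29 family 1 of 6 (miR-29a-3p higher, 0.54 ± 0.10). miR-29a-3p, which represses collagen genes, shares the seed AGCACCA with miR-29b-3p at −0.09 and miR-29c-3p at −0.21, which were not called. Among the 31 seeds that at least 2 tested miRNAs share, 3 had at least 2 called members and 0 had calls in opposite directions. Likewise, of 34 groups of hairpins within 10 kb of each other, 3 had at least 2 called arms, and 0 had calls in opposite directions. In the group of miR-30c-1 and miR-30e the called arms were those of miR-30e alone. Opposite calls were possible only in seeds and groups with at least 2 calls, so the counts of 0 say little about agreement within them.

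Myeloid markers were present in each library, with miR-223-3p at 803 CPM or more and miR-21a-5p at the levels given above, and the lists of markers of other cell types were summed in each library. The lipoprotein ranges of these sums pool both genotypes, so they do not show where an LPS library lies within its own genotype. The list of granulocyte and mast cell markers, which holds miR-223 and miR-9, was mostly miR-9-5p by reads. It summed to 14008 CPM in the knockout and 8442 CPM in the wild type with LPS, against 12787 to 20177 CPM with lipoproteins. Of its 4 tested arms 3 were lower. It moves with the miR-223 and miR-9-5p results, and its part in them was not tested. The stromal list summed to 223 CPM and 304 CPM with LPS, against 121 to 291 CPM, with 4 of its 14 detected arms at 0 in all 8 libraries and 1 of 3 tested arms higher (miR-10b-5p, 0.77 ± 0.15). The epithelial list summed to 248 CPM and 290 CPM, against 215 to 262 CPM (0 of 7 called by edgeR, 2 at unadjusted p under 0.05 and 1 called by DESeq2). The erythroid list reached 724 CPM and 527 CPM, against 416 to 600 CPM, and its 1 tested arm was higher (miR-486-5p, 0.41 ± 0.09, also the 1 of 4 called in the liver and serum list). That call was lost when scaled to total miRNA reads (0.27), without both LDL libraries and without the knockout LPS library (0.34). The lymphoid list had 130 CPM and 163 CPM, against 111 to 169 CPM (0 of 1 called), and the endothelial list 2.93 CPM and 12.5 CPM, against 4.45 to 13.4 CPM (0 of 2), and DESeq2 and the unadjusted p of edgeR gave 0 in these lists too.

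Set against each lipoprotein alone, with the 4 stimuli as separate levels of 1 fit, LPS differed from oxLDL in 42 miRNAs (12.5%), 23 higher and 19 lower. It differed from eLDL in 42 (12.5%), 25 higher and 17 lower, and from LDL in 45 (13.4%), 28 higher and 17 lower. These 3 comparisons share the LPS libraries and are not independent. Of the 61 miRNAs called over all lipoproteins, 30 were called in the same direction against each one. When scaled to total reads the counts were 16 higher and 33 lower against oxLDL, 13 and 23 against eLDL and 18 and 21 against LDL. With DESeq2's size factors they were 23 and 21, 21 and 21, and 23 and 20, in the same order.

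The difference between LPS and lipoproteins was then compared between knockout and wild-type macrophages. It differed for 11 of 337 miRNAs (3.26%; edgeR's quasi-likelihood test of the genotype by LPS term, adjusted p under 0.05; 44 at unadjusted p under 0.05). With 1 LPS library per genotype this test takes its error from the lipoprotein libraries alone, and neither LPS library has a replicate. In 4 of the 11 the LPS library was above its 3 lipoprotein libraries in the wild type and not in the knockout. Among these is miR-146a-5p, which had 1482 CPM with LPS in the knockout, against 1714, 1610 and 1588 CPM with oxLDL, eLDL and LDL. In the wild type it had 1407 CPM with LPS, against 899, 1032 and 830 CPM. The log2 difference was −0.02 in the knockout and 0.76 in the wild type, so that the knockout had the higher level with lipoproteins and the genotypes were close with LPS (difference −0.79 ± 0.17, adjusted p = 0.0256).

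For miR-210-3p the difference was 0.41 in the knockout and 1.93 in the wild type (−1.51 ± 0.19, adjusted p = 0.00144). miR-21a-3p had 0.59 and 1.60 (−1.01 ± 0.19, adjusted p = 0.00968) and miR-221-3p 0.46 and 1.36 (−0.90 ± 0.17, adjusted p = 0.00968). These 3 were called higher over both genotypes, and in each the knockout moved the same way by less. miR-326-5p, from an intron of Arrb1, had 0.07 in the knockout and 1.60 in the wild type (−1.53 ± 0.33). miR-187-3p, which is known to restrain Tnf, had 153 CPM with LPS in the knockout, against 177, 187 and 173 CPM with lipoproteins, and 21.1 CPM with LPS in the wild type, against 82.2, 100 and 67.7 CPM (1.72 ± 0.28, adjusted p = 0.00678). It was thus low in the wild-type LPS library and nearly level in the knockout. A level knockout also stood beside a low wild-type LPS library for miR-92a-1-5p (27 CPM, against 27.3 to 33.1 CPM, in the knockout and 7.02 CPM, against 31.8 to 38.2 CPM, in the wild type) and miR-351-5p (316 CPM, against 349 to 373 CPM, in the knockout and 170 CPM, against 409 to 480 CPM, in the wild type). miR-34a-3p, the scarcer arm of a p53 target, had 43.1 CPM with LPS in the knockout, against 24.6 to 31.5 CPM, and 4.14 CPM in the wild type, against 14.9 to 22.1 CPM. The 5p arm was not called over both genotypes (0.23 ± 0.14).

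**Figure D2:**
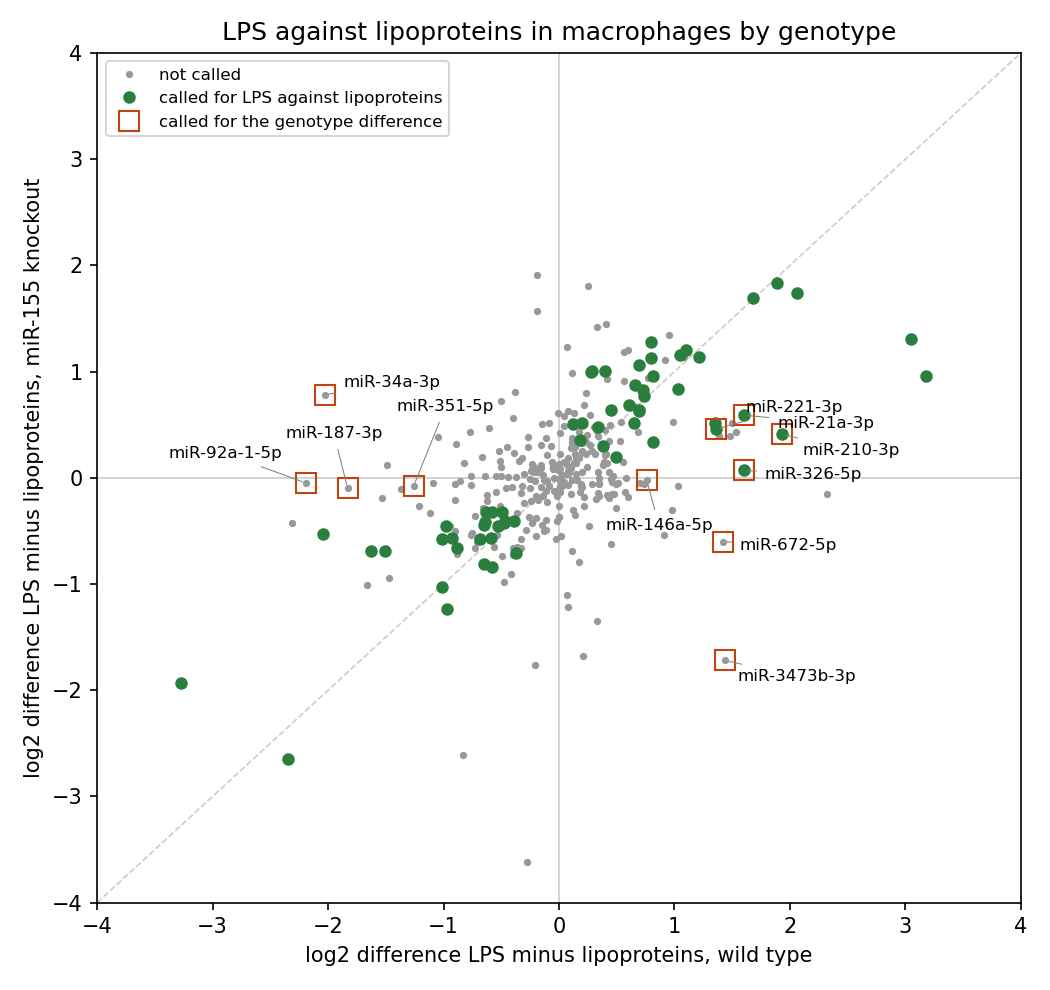
Log2 difference between LPS and lipoproteins for the 337 tested miRNAs, in knockout macrophages (vertical axis) against wild-type macrophages (horizontal axis), with filled circles for the 61 miRNAs called over both genotypes and open squares for the 11 called for the genotype difference. The 61 lie in the quadrants of equal sign, and miR-210-3p, miR-21a-3p and miR-221-3p lie below the dashed line of equality, at 0.41, 0.59 and 0.46 in the knockout.

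Calls were also counted by hairpin, beside the 18.1% called over all tested miRNAs. Of 87 hairpins with both arms tested, 4 had both arms higher with LPS (miR-210, miR-21a, miR-361 and miR-455), 3 had both arms lower (miR-223, miR-30a and miR-30e), 21 had exactly 1 arm called and 0 had arms called in opposite directions. An arm that was not called does not show that the arms differ, and opposite calls were possible only where both arms were called. The log2 ratio of 5p to 3p reads differed for 4 of 77 hairpins (5.19%; limma on log2 ratios, adjusted p under 0.05; 14 at unadjusted p under 0.05). For miR-147 it was −1.57 in the knockout and −1.67 in the wild type with LPS, against −0.86 to −0.78 in the knockout and −0.90 to −0.54 in the wild type with lipoproteins (−0.86 ± 0.16, adjusted p = 0.0265), a shift towards 3p. It was higher for miR-700 (1.22 ± 0.30), miR-296 (1.04 ± 0.24) and miR-511 (0.72 ± 0.18), each with adjusted p = 0.0487. miR-511 lies in an intron of the mannose receptor gene Mrc1, and its 5p arm had 12.6 CPM and 25.6 CPM with LPS, against 6.39 to 8.89 CPM in the knockout and 12.9 to 14.8 CPM in the wild type. Without 1 library the number of hairpins called ran from 0, without the wild-type oxLDL library, to 10, without the knockout LDL library, so these calls depend on single libraries.

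The lengths of the tags differed between LPS and lipoproteins as well. For 128 miRNAs with at least 500 reads in each library, the mean length of the tags was compared, and it differed for 48 of them (37.5%; limma on mean length, adjusted p under 0.05; 65 at unadjusted p under 0.05). With LPS 45 were shorter and 3 were longer. In all 45 the LPS library had a shorter mean than the 3 lipoprotein libraries of its genotype in both genotypes, which held for 77 of the 128 miRNAs tested. Shorter tags arose at the 3′ end: the mean position of the 3′ end differed for 49 miRNAs (38.3%), 47 of them among the 48, and that of the 5′ end for 6 (4.69%), although the tags counted had to start within 2 nt of the main 5′ end. Tags under 18 nt are not in the files, tags with added bases that the hairpin lacks were not counted, and the cause of the shorter tags was not tested.

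miR-298-5p had the largest difference. Its tags averaged 20.41 nt in the knockout and 20.33 nt in the wild type with LPS, against 21.47, 21.53 and 21.64 nt in the knockout and 21.60, 21.51 and 21.57 nt in the wild type with oxLDL, eLDL and LDL (−1.181 ± 0.050 nt, adjusted p = 1.6e-05). Tags of 23 nt made up 7.81% of its reads in both LPS libraries, against 28.1 to 32% with lipoproteins. Tags of 18 to 20 nt had 56% and 59.9%, against 20 to 25.2%. From the first base of the sequence above, 23 nt reach the last of the 3 capital letters and 18 to 20 nt end before them. The shares count all starts within 2 nt of the main 5′ end. miR-423-3p averaged 21.91 nt and 21.83 nt with LPS, against 22.61 to 22.78 nt (−0.839 ± 0.045 nt, adjusted p = 3.5e-05). Its 23 nt form made up 53% in the knockout and 54.6% in the wild type with LPS, against 68.8 to 75.8% with lipoproteins. Its tags of 18 to 20 nt had 27.5% and 28.7%, against 5.69 to 8.89%. The LPS libraries of both genotypes were nearly equal and lay outside the range of the 6 lipoprotein libraries.

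miR-296-3p, from a hairpin near that of miR-298 on chromosome 2, averaged 20.32 nt and 20.33 nt with LPS, against 21.12 to 21.32 nt (−0.914 ± 0.061 nt, adjusted p = 6.6e-05). miR-149-5p differed by −0.611 ± 0.073 nt, miR-425-3p by −0.601 ± 0.039 nt and miR-221-5p by −0.564 ± 0.045 nt. miR-221-3p, which was higher with LPS in level, was shorter too, with 18.7% and 13.2% of its reads at 23 nt with LPS, against 40.9 to 48.2% with lipoproteins (−0.497 ± 0.034 nt, adjusted p = 6.6e-05). miR-223-3p, lower in level, averaged 19.86 nt and 20.11 nt with LPS, against 20.28 to 20.35 nt (−0.324 ± 0.058 nt, adjusted p = 0.00468). The 3 miRNAs with longer tags were all higher in level. They were miR-101a-3p (0.158 ± 0.028 nt), miR-182-5p (0.114 ± 0.026 nt) and miR-183-5p (0.066 ± 0.019 nt), and for miR-182-5p the 25 nt form took 30.9% and 34.5% of the reads with LPS, against 14.8 to 20% with lipoproteins. Without the wild-type LPS library 27 miRNAs were called shorter and 0 longer.

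**Figure D3:**
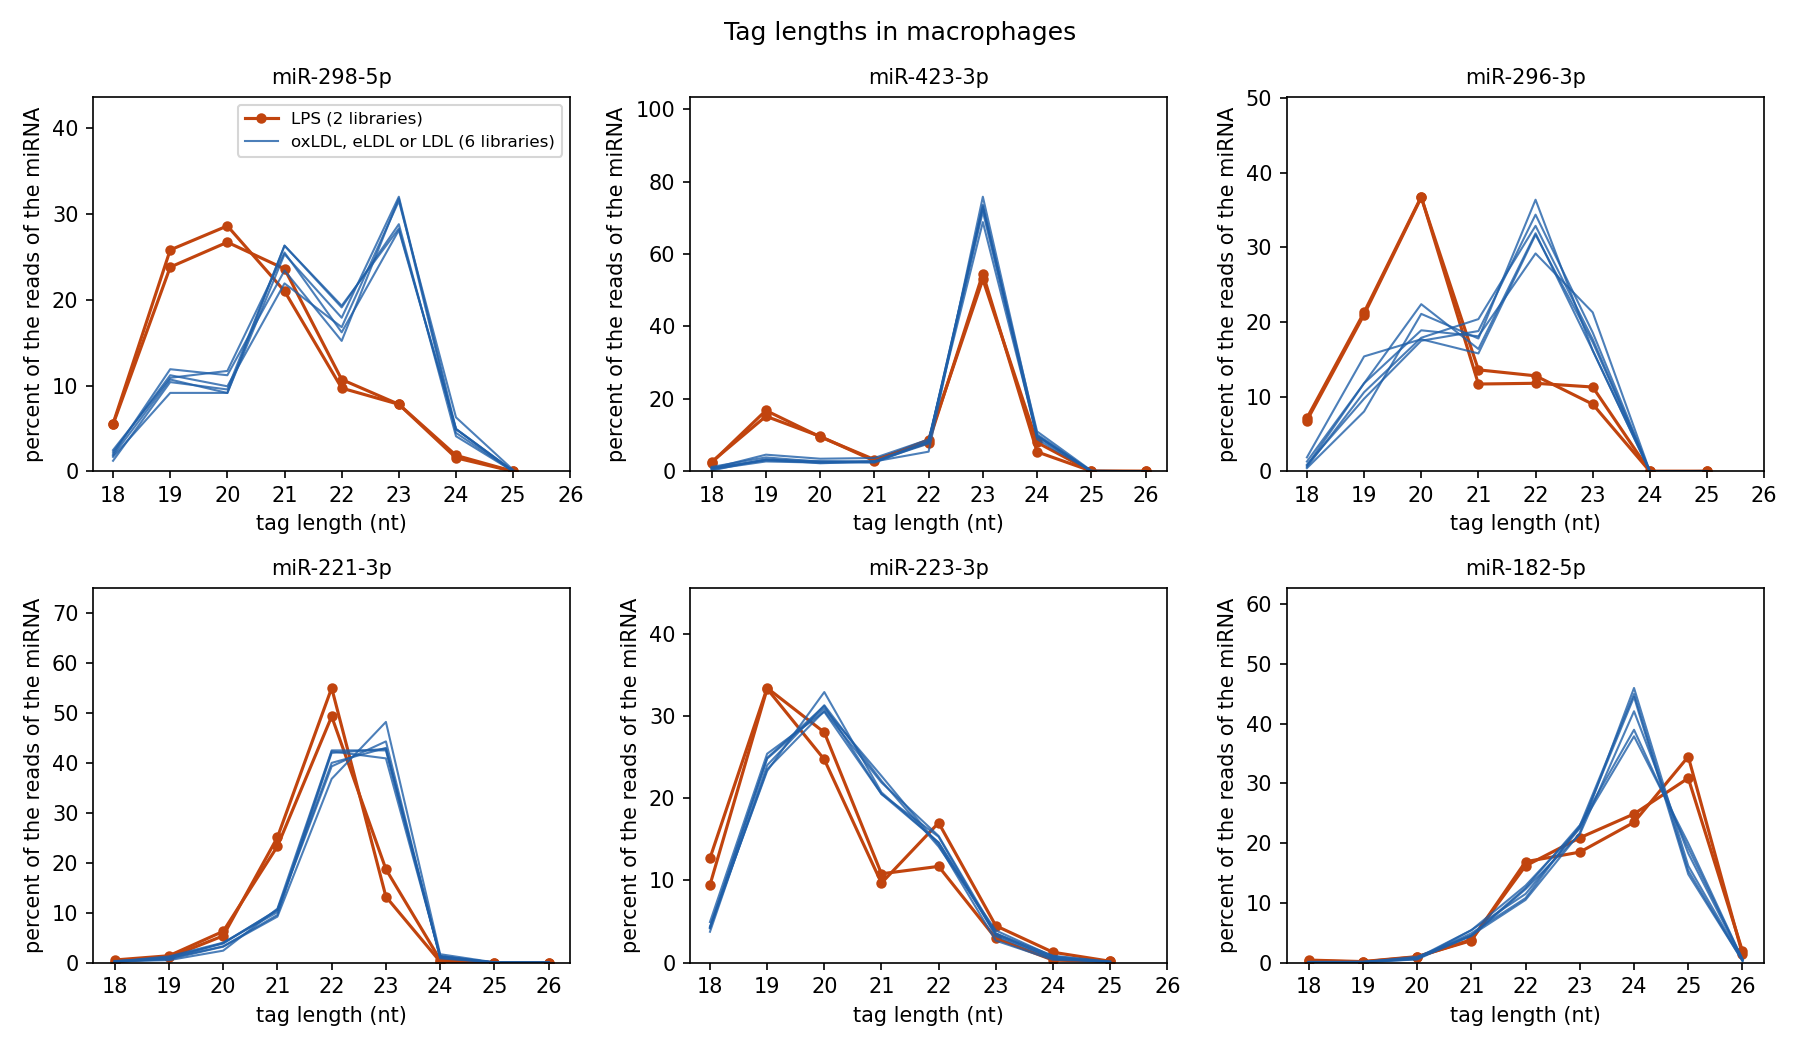
Share of the reads of 6 miRNAs by tag length in nt, as a percentage of the reads of the miRNA in that library, with 2 LPS libraries (lines with points) and 6 lipoprotein libraries (thin lines). In miR-298-5p, miR-423-3p, miR-296-3p and miR-221-3p the longest common forms lose and shorter forms gain with LPS (23 nt of miR-298-5p: 7.81% in both LPS libraries, against 28.1 to 32%), while miR-182-5p gains at 25 nt.

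Length and level overlapped unevenly. Of 14 length-tested miRNAs that were lower with LPS, 12 had shorter tags, and of 22 that were higher, 5 had shorter and 3 longer tags. Over all 128 length-tested miRNAs 45 had shorter and 3 longer tags, and 28 of the 45 were not called in level. Length and level were read from the same tags of the same libraries, so these calls are not independent. Tags below 18 nt are missing from the files, so reads that a miRNA may lose by shortening cannot be counted, and the part of tag length in the lower levels was not tested. A count of tags of 20 to 24 nt alone leaves out more of the short tags. By it 23 of the 25 lower and 33 of the 36 higher miRNAs kept their call. The difference of miR-223-3p was −1.07 in place of −0.73 and that of miR-296-3p −0.98 in place of −0.71. In the other direction, miR-223-5p had −0.11 in place of −0.53 and miR-342-5p −0.09 in place of −0.71, and both lost their call. Among the higher ones miR-182-5p had 0.65 in place of 0.97. Over all miRNAs, tags of 18 to 20 nt made up 6.44% of reads in the knockout and 6.01% in the wild type with LPS, against 3.14 to 5.47% with lipoproteins. The 3.14% was the wild-type LDL library, in which tags of 18 nt were nearly missing (0.0558%). The next lowest was 4.41%, in the knockout with LDL. Among the 110 length-tested miRNAs with a RefSeq sequence, 14 of 19 that end in C had shorter tags (median −0.202 nt), against 14 of 42 ending in U, 4 of 21 ending in A and 4 of 28 ending in G. Of those with 3 or 4 C or U among the last 4 bases 21 of 34 were shorter, against 15 of 76 with fewer, which is a description over miRNAs of the same 8 libraries and carries no test.

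The 8 dendritic cell libraries, grown from the same strains with GM-CSF and with LPS given overnight at 200 ng/ml, were fitted in the same way as a comparison. For macrophages the dose and duration of LPS are not given, and their growth factor was M-CSF. Cell type thus cannot be told apart from dose, duration or growth factor in this comparison. The difference between LPS and lipoproteins was not the same in the 2 cell types for 39 of 366 miRNAs (10.7%; edgeR's quasi-likelihood test of macrophages minus dendritic cells in 16 libraries, adjusted p under 0.05). miR-183-5p was higher with LPS in macrophages (1.08 ± 0.12) and lower in dendritic cells (−0.39 ± 0.13), a difference of 1.47 ± 0.18 (adjusted p = 3.4e-05). miR-182-5p had 0.99 ± 0.12 in macrophages and −0.17 ± 0.13 in dendritic cells (difference 1.16 ± 0.18, adjusted p = 2.5e-04), and miR-101a-3p 1.17 ± 0.11 and 0.46 ± 0.12 (0.71 ± 0.17, adjusted p = 0.0086). miR-147-3p differed by more in dendritic cells, with 1.19 ± 0.16 in macrophages and 6.44 ± 0.18 in dendritic cells (−5.25 ± 0.27). Its level with lipoproteins was 561 to 940 CPM in macrophages, against 2.03 to 5.88 CPM in dendritic cells. For miR-22-3p, miR-27b-3p, miR-7a-5p, miR-16-1-3p, miR-223-3p, miR-33-5p and miR-30e-5p the difference between cell types did not pass the test (adjusted p from 0.139 to 0.856).

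Tags were shorter with LPS in dendritic cells too. There, 72 of 124 miRNAs differed in mean length (58.1%), 66 shorter and 6 longer, and of the 39 that were shorter in macrophages and tested in both cell types, 36 were shorter in dendritic cells and 3 were not called. miR-423-3p differed by −0.839 nt in macrophages and −0.909 ± 0.035 nt in dendritic cells, and miR-298-5p by −1.181 nt and −0.934 ± 0.113 nt. Tags of miR-182-5p and miR-101a-3p were longer with LPS in macrophages and shorter in dendritic cells (−0.505 ± 0.047 and −0.062 ± 0.014 nt).

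**Figure D4:**
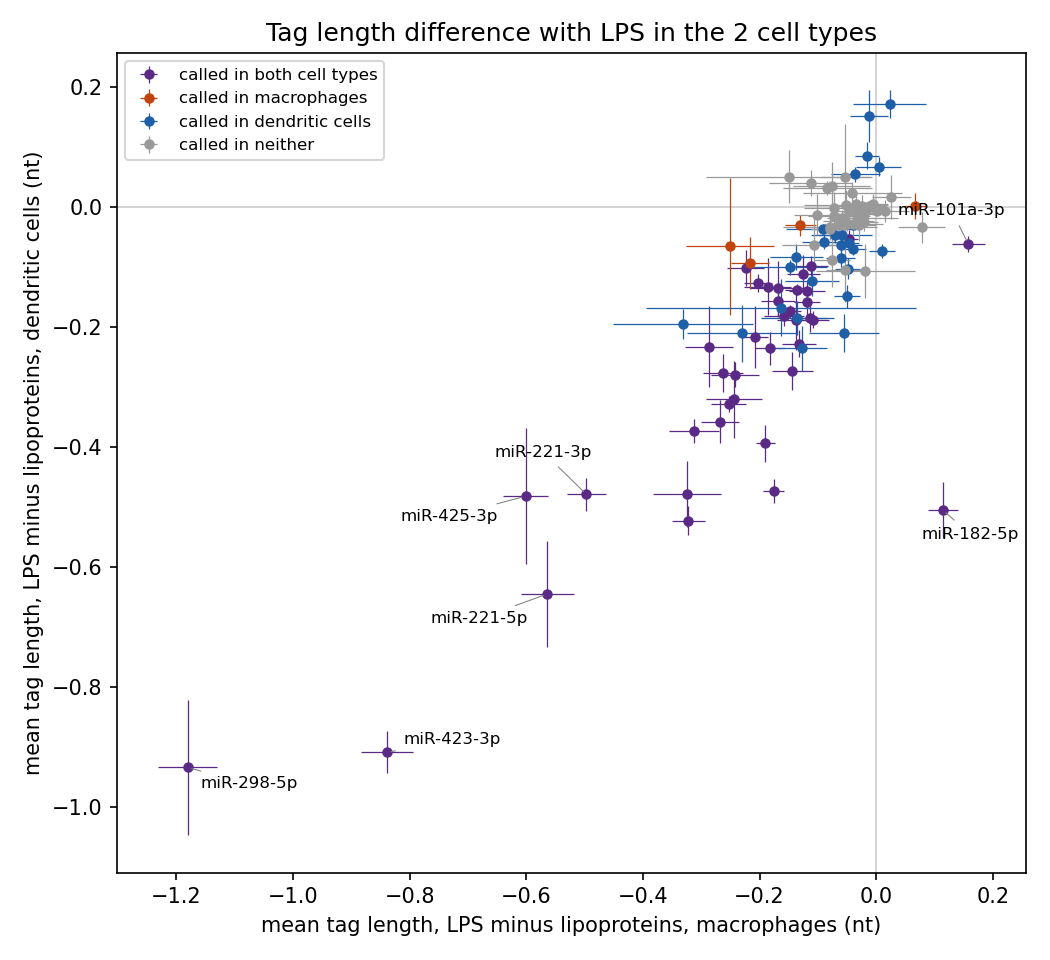
Difference in mean tag length (nt) between LPS and lipoproteins in dendritic cells (vertical axis) against macrophages (horizontal axis) for 109 miRNAs tested in both, with standard errors as bars and colours for the cell type in which a miRNA was called. Most points lie at or below 0 on both axes, miR-298-5p and miR-423-3p lie farthest from 0 in both cell types, and miR-182-5p has 0.114 nt in macrophages and −0.505 nt in dendritic cells.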

How the data were processed

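Small RNA of 20 cultures was sequenced, and 8 macrophage libraries carry the comparison. Cells were lysed in Trizol for total RNA and the TruSeq kit of Illumina was used for the libraries, per the labels' protocols. CASAVA 1.8.2 is named in the submitters' processing notes without its role. How the adapter was trimmed, and to which lengths, is not given in the sources used here. Each deposited file lists distinct tags of 18 to 45 nt with the authors' read count for each.

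Exact matches of tags of 18 to 26 nt were sought in 1178 hairpins of GENCODE M21 (GRCm38). Arms came from RefSeq (649 hairpins) or from the loop predicted by RNAfold 2.7.2, and a tag had to start within 2 nt of the most frequent 5′ end. Arms that share sequence were joined (78 features, miR-103-3p with miR-107 and miR-378a-3p with miR-378b and miR-378c among them), and reads that match several features were divided equally. Of 1219 features detected, 890 have RefSeq names. RefSeq gave a mature sequence for 266 of the 337 tested and 51 of the 61 called miRNAs. Reads outside hairpins were not analysed here.

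Counts were scaled by TMM and tested with edgeR 4.0.16 (R 4.3.3; robust quasi-likelihood F tests, Benjamini-Hochberg at 0.05) with genotype as a block and 5 residual degrees of freedom, 4 for the genotype difference, 3 for single lipoproteins and 10 for the cell types. Standard errors are the log2 difference divided by the square root of F. Arm ratios (a mean of at least 50 counts on each arm, pseudocount 1) and mean tag lengths used limma 3.58.1, and DESeq2 1.42.0 was an alternative. The scripts were tested on simulated data.

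The members and the 23 lists were chosen with earlier results of these data known. Named are both arms of miR-155, up to 12 called miRNAs each way with the largest difference, 50 or more counts on average and the LPS library beyond all 3 lipoprotein libraries in both genotypes, called list members and the 10 most abundant miRNAs. So are both arms of miR-146a, miR-146b, miR-147, miR-21a, miR-223, miR-132, miR-212, miR-33 and miR-378a. Not described above are the abundant let-7f-5p (log2 difference 0.10), let-7a-5p (0.03), miR-10a-5p (−0.06), miR-191-5p (−0.18) and miR-142a-5p (0.10), and miR-146b-3p (0.26). None of these was called by edgeR in the fit over both genotypes. Genotype and cell type differences give up to 8 each way, and arm ratios and tag lengths up to 6 each way. Named after their values were seen are miR-101b-3p, miR-96-5p, miR-222-3p, miR-30c-5p, miR-30d-5p, miR-29b-3p, miR-29c-3p, miR-34a-5p, miR-511-5p, the macrophage miRNAs given again for the cell types and the lengths of miR-223-3p and miR-221-3p.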

Additional observations from a re-analysis of the deposited data

Results flagged for a closer look

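The difference between LPS and lipoproteins was not the same in knockout and wild-type macrophages (knockout minus wild type, log2) for miR-34a-3p (2.81), miR-92a-1-5p (2.15), miR-187-3p (1.72), miR-351-5p (1.18), miR-146a-5p (−0.79), miR-221-3p (−0.90), miR-21a-3p (−1.01), miR-210-3p (−1.51), miR-326-5p (−1.53), miR-672-5p (−2.02) and miR-3473b-3p (−3.16), by edgeR's test of the genotype by LPS term. The last 2 went opposite ways. miR-672-5p had 16.7 CPM with LPS in the knockout, against 22.4 to 32.3 CPM with lipoproteins, and 20.9 CPM with LPS in the wild type, against 6.99 to 10.7 CPM. miR-3473b-3p had 4.2 CPM with LPS in the knockout, against 11 to 17.5 CPM, and 15.6 CPM in the wild type, against 4.5 to 7.92 CPM. Neither was called over both genotypes, and each rests on 1 LPS library per genotype.

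Between macrophages and dendritic cells (macrophages minus dendritic cells, log2) the difference was tested in the same way and was positive for miR-6539-5p (6.50), miR-1249-3p (2.40), miR-664-3p (1.97), miR-222-3p (1.68), miR-222-5p (1.67), miR-877-3p (3.24), miR-18a-3p (1.62) and miR-1843b-3p (2.69). miR-222-3p had 2581 CPM and 6087 CPM with LPS in macrophages, against 2842 to 3377 CPM in the knockout and 4309 to 4713 CPM in the wild type with lipoproteins, and 10348 CPM and 14599 CPM with LPS in dendritic cells, against 37730 to 46799 CPM and 30569 to 44743 CPM. miR-1249-3p had 54.8 CPM and 44.1 CPM with LPS in macrophages, against 45 to 51 CPM in the knockout and 42.7 to 62.5 CPM in the wild type, and 22.7 CPM and 9.43 CPM with LPS in dendritic cells, against 85.5 to 115 CPM and 67.3 to 87.2 CPM. miR-6539-5p had 0 reads in both dendritic LPS libraries, so its fitted difference depends on the prior count and is no bound. Here too, cell type cannot be told apart from LPS dose, duration or growth factor.

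The same difference was negative for miR-155-3p (−6.10), miR-147-3p (−5.25), miR-455-5p (−4.15), miR-155-5p (−4.13), miR-147-5p (−3.48), miR-455-3p (−2.69), miR-9-5p (−1.96) and miR-181d-5p (−1.23). For miR-155-5p the wild type had 39828 CPM with LPS in macrophages, against 26724 to 33143 CPM with lipoproteins, and 9589 CPM with LPS in dendritic cells, against 341 to 447 CPM. miR-9-5p was lower with LPS in macrophages and had 14.6 CPM and 18.9 CPM with LPS in dendritic cells, against 6.77 to 11.3 CPM in the knockout and 4.34 to 6.74 CPM in the wild type. Both arms of miR-455, from an intron of Col27a1, were called higher in macrophages (0.66 and 0.76) and were at or near 0 with lipoproteins in dendritic cells, where their fitted values depend on the prior count.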

How the results depend on the processing

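The 61 calls of LPS against lipoproteins stood against 24 alternatives. Without genotype (no replicate block) 23 were called, 19 higher and 4 lower. Leaving out 1 library gave 40, without the wild-type LPS library, to 70, without the knockout LPS library. The other alternatives gave 43 to 82 (82 with DESeq2). The genotype difference had 11 calls and 7 to 13 without 1 lipoprotein library (7 without the knockout eLDL library). The cell type difference had 39 and 24 (without the wild-type dendritic LPS library) to 52, and arm ratios 4 and 0 to 10. Tag lengths had 48 calls in macrophages and 27 (without the wild-type LPS library) to 50, and in dendritic cells 72 and 47 (without the wild-type dendritic LPS library) to 77. The cell type difference of miR-155-3p was −6.10 and ran from −7.14 to 0.51, and that of miR-155-5p was −4.13 and ran from −4.58 to 0.18, with 0.51 and 0.18 where the wild-type dendritic LPS library is left out and a knockout library is the other dendritic one with LPS. The 3′ end positions, the dendritic length fit and its fits without 1 library were chosen after seeing the data. A fit without an LPS library leaves 1 LPS library, which is assumed to vary like the others. Scarce miRNAs such as miR-135a-1-3p rest on few reads in the LPS libraries, and depth limits what they show.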
